A study of Mus musculus with 12 samples.

Results

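Amino acid transporters of the cell membrane were followed in BV2 cells, an immortalised mouse microglial line, as a set of 9 genes chosen by symbol: Slc7a11, Slc3a2, Slc7a5, Slc7a6, Slc7a1, Slc38a2, Slc38a1, Slc1a5 and Slc1a4. All 9 were found among the 22935 genes of the deposited count tables, and all 9 passed the filter on low counts that left 14146 genes for testing. The groups were oxy-Hb with C3a, oxy-Hb with C3aRA, and oxy-Hb alone, with 3 libraries each. Every group had received oxyhaemoglobin (oxy-Hb) at 10 uM. C3a, the complement fragment that binds the receptor C3aR, was added at 20 ug/ul as the label gives it, a unit that would make the dose very high for a peptide. The dose of C3aRA, an abbreviation left unexplained in the labels, was 50 uM. The series also holds PBS samples, which were not analysed here, so no value below is a response to oxy-Hb itself. All groups are 1 cell line in culture, and the labels leave unsaid whether replicates came from separate cultures. The p-values then reflect only how much these libraries differ among themselves, which could be technical spread.

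Amino acid transporters fall into a few working types. Heteromeric exchangers pair the heavy chain encoded by Slc3a2, which carries its partners to the cell surface, with a light chain that does the transport. Slc7a11 encodes the light chain xCT, which takes up cystine in exchange for glutamate; the cystine feeds glutathione synthesis, and in microglia the exchanger is known as a route of glutamate release. Slc7a5 encodes LAT1, which brings in leucine and other large neutral amino acids, and Slc7a6 encodes y+LAT2, which exchanges cationic for neutral amino acids. Slc7a1 encodes CAT-1, which carries arginine and lysine without a heavy chain. The Slc38a2 and Slc38a1 products, SNAT2 and SNAT1, take up glutamine and other small neutral amino acids with sodium. The Slc1a5 product ASCT2 exchanges glutamine and other neutral amino acids, and that of Slc1a4, ASCT1, exchanges serine, alanine and cysteine. Several of these genes are known targets of ATF4, the transcription factor of the amino acid shortage response, and Slc7a11 is also a known target of NRF2, the oxidative stress factor encoded by Nfe2l2.

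Promoter letters are shown because 2 of the members hold the letters of the ATF4 response element close to the start. Promoter windows of 300 bases (250 before to 50 after an annotated start, RefSeq, build GRCm38.p6) matched 6 of the 9 members by symbol. None was matched for Slc7a5, Slc38a1 and Slc1a5. The Slc3a2 window (chr19:8713848-8714147) lay inside the gene, whose outer end is at 8723369, so the letters at that end were not searched. A second Slc7a1 window also lay inside its gene. The C/EBP-ATF core TGATGNAA, searched on both strands, was found in 3.97% of all 32851 windows (1304), and among the members in Slc7a11 and Slc1a4. Below are 110 bases of each, from 100 before to 10 after the start, 5′ to 3′ on the minus strand, with the matches in capitals; those of Slc7a11 are at chr3:50443604-50443713 and those of Slc1a4 at chr11:20332704-20332813.
Slc7a11: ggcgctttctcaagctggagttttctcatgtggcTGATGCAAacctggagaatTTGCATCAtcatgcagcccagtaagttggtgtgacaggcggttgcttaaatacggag
Slc1a4: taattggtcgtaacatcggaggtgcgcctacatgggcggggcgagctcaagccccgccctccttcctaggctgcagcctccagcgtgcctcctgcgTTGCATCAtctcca
The Slc7a11 stretch holds the core on the plus orientation of the gene at -66 to -59 and on the opposite orientation at -47 to -40. The Slc1a4 match, on the opposite orientation, spans the start, from -4 to 4. The pattern TGANNNNGC, a loose form of the antioxidant core that leaves the letter after TGA free, was found in 41.3% of all windows (13581). It is short and degenerate, so a match need not be an antioxidant element. The Slc7a11 window held this pattern 3 times, with 1 match overlapping the second C/EBP-ATF match. Matches were also found in the windows of Slc7a6, Slc7a1, Slc38a2 and Slc1a4. A match is a description of letters and not of binding.

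Total counts were 16987624, 20479002 and 17190773 for oxy-Hb with C3a, 12934794, 16101537 and 17252848 for oxy-Hb with C3aRA, and 15375073, 18184027 and 15889587 for oxy-Hb. Member counts ran from 341 for Slc1a4 to 16344 for Slc7a11 in a library. C3a replicate 2 stood apart, with a score of -76.3 on the first principal component, against -10.8 to 23.8 in the other 8 libraries, so the fit without it is given beside the C3a results it moves most. The 12 microglial markers summed to 1969.5 to 2482.6 CPM (counts scaled to a common library size) per library. Cd68 (804 to 1004 CPM), Ptprc (379 to 496 CPM) and Fcer1g (265 to 436 CPM) were high. Aif1 (0.780 to 2.91 CPM), Tmem119 (0.932 to 2.41 CPM) and P2ry12 (0.232 to 3.90 CPM), which mark microglia in the brain, were close to absent. The 1 of 5 astrocyte markers in the tables reached 0.698 CPM, the 1 of 5 neuronal markers 0.818 CPM, the 2 of 6 red cell markers 1.62 CPM in sum, and the 1 of 6 endothelial and fibroblast markers 1.65 CPM. Mbp, an oligodendrocyte marker, ran from 5.49 to 8.14 CPM.

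Set against gene length, Slc7a11, Slc3a2 and Slc38a2 gave the most abundant mRNAs of the set. In CPM per kilobase of annotated exon, the mean level over 9 libraries was 60.6 ± 3.51 for Slc7a11, 55.6 ± 6.999 for Slc3a2 and 52.5 ± 3.01 for Slc38a2 (SD, n = 9). Next came Slc1a5 at 30.9 ± 4.37, Slc7a6 at 18.2 ± 1.06 and Slc7a5 at 15.7 ± 1.55 CPM per kilobase (SD, n = 9). Slc38a1 at 10.5 ± 0.867, Slc7a1 at 7.54 ± 0.819 and Slc1a4 at 6.40 ± 0.936 CPM per kilobase (SD, n = 9) were lowest. Neighbours in this order whose ranges overlapped were Slc7a11 and Slc3a2, Slc3a2 and Slc38a2, Slc7a6 and Slc7a5, and Slc7a1 and Slc1a4. The steps from Slc38a2 to Slc1a5 (1.70-fold), from Slc1a5 to Slc7a6 (1.70-fold), from Slc7a5 to Slc38a1 (1.49-fold) and from Slc38a1 to Slc7a1 (1.39-fold) held in all 9 libraries. The order at the top depends on the length used. Per kilobase of the principal transcript, Slc3a2 (108 CPM per kilobase), Slc38a2 (99.5) and Slc7a11 (91.4) led, and Slc38a1 (24.9) stood above Slc7a6 (22.1) and Slc7a5 (16.5). The summed level of the 9 genes was 2116, 2071 and 2117 CPM with C3a, 2016, 2130 and 2024 CPM with C3aRA, and 2040, 2016 and 2065 CPM with oxy-Hb. The C3aRA sums overlapped those of both other groups, and the lowest C3a sum lay just above the highest oxy-Hb sum (2071 against 2065 CPM).

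**Figure D1:**
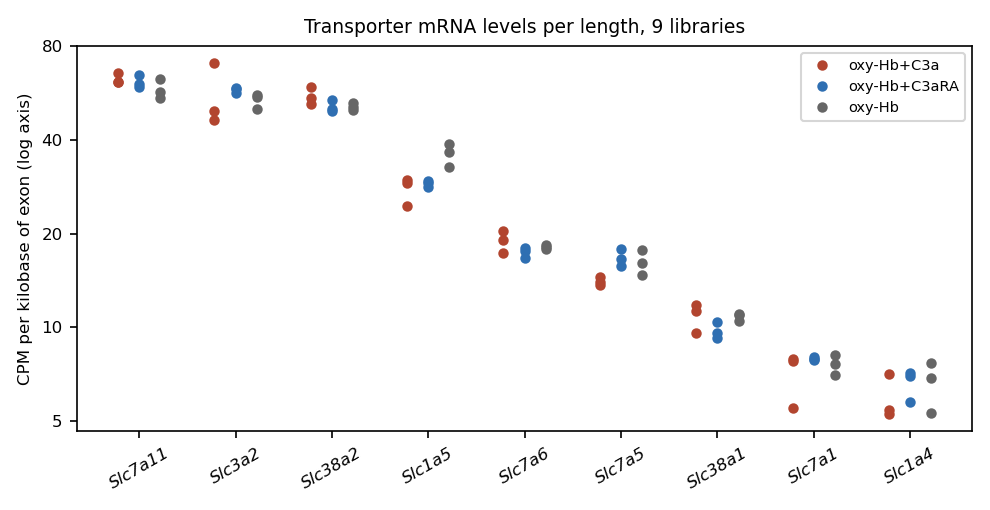
Level of each transporter in CPM per kilobase of annotated exon (log axis), 1 point per library, with oxy-Hb+C3a on the left, oxy-Hb+C3aRA in the middle and oxy-Hb on the right of each gene. The genes are ordered by their mean, from 60.6 for Slc7a11 to 6.40 for Slc1a4, and only for Slc1a5 do the oxy-Hb libraries lie above all 6 others.

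The first comparison asked what C3a added to oxy-Hb. Slc1a5, the glutamine exchanger gene, was the member that moved most, and it stood lower with C3a. In edgeR's quasi-likelihood fit of 9 libraries none of the 9 members had an adjusted p (Benjamini-Hochberg) below 0.05, where 3.94% of all genes did (558 of 14146). An unadjusted p below 0.05 was reached by Slc1a5 alone, 1 of 9, against 24.1% of all genes. The groups did not overlap for 2 of the 9, Slc1a5 and Slc7a5, against 27.8% of all genes. The members' median log2 fold change was 0.006, beside 0.002 over all genes, and their median absolute log2 fold change was 0.11, beside 0.25 over all genes. Log2 fold changes of the members ran from -0.37 to 0.11, and their 95% intervals lay within -0.60 and 0.34.

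Slc1a5 (ENSMUSG00000001918, chromosome 7, 16781340 to 16798274, plus strand, GRCm38) had 103, 124 and 122 CPM with C3a, against 153, 161 and 136 CPM with oxy-Hb. Every C3a library lay below every oxy-Hb library. The means were 116 ± 11.6 CPM with C3a and 150 ± 12.6 CPM with oxy-Hb (SD, n = 3 each), a log2 fold change of -0.37 ± 0.11 (SE; 95% interval -0.60 to -0.14). In edgeR the adjusted p was 0.0640 (unadjusted p = 0.00350). Without C3a replicate 2 the log2 fold change was -0.43 ± 0.09 (SE) and the edgeR adjusted p 0.00185, in a fit that called 9.55% of all genes (1395). DESeq2's Wald test also called it (-0.37, adjusted p = 0.0260), together with 10.1% of the genes it gave an adjusted p. The direction was the same in all 18 alternative fits, with log2 fold changes from -0.47 to -0.24 and adjusted p from 0.00185 to 0.241, and 4 of them called it. In the authors' deposited table the log2 fold change was -0.36 with an adjusted p of 0.136, and the other 8 members had adjusted p from 0.477 to 0.967 there.

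Of the exchanger with the heavy chain, the cystine light chain gene Slc7a11 (ENSMUSG00000027737, chromosome 3, 49892526 to 50443614, minus strand) had 910, 851 and 851 CPM with C3a, against 793, 756 and 870 CPM with oxy-Hb. The groups overlapped through oxy-Hb replicate 3. The log2 fold change was 0.11 ± 0.10 (SE; 95% interval -0.09 to 0.32; edgeR adjusted p = 0.494). Slc7a5 (ENSMUSG00000040010, chromosome 8, 121881150 to 121907694, minus strand), for the leucine carrier, had 54.0, 52.0 and 50.8 CPM with C3a, against 65.8, 59.7 and 54.6 CPM with oxy-Hb. Its groups were next to each other without overlap, and the log2 fold change of -0.20 ± 0.11 (SE) did not pass (edgeR adjusted p = 0.278). Slc7a6 (ENSMUSG00000031904, chromosome 8, 106168857 to 106198706, plus strand) had 86.9, 79.2 and 93.2 CPM with C3a, against 82.8, 81.3 and 84.1 CPM with oxy-Hb. The C3a libraries lay on both sides of the oxy-Hb libraries, with a log2 fold change of 0.06 ± 0.10 (SE; adjusted p = 0.736), and 0.12 without C3a replicate 2 (adjusted p = 0.467).

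The heavy chain gene Slc3a2 (ENSMUSG00000010095, chromosome 19, 8706882 to 8723369, minus strand) had 174, 249 and 163 CPM with C3a, against 196, 193 and 177 CPM with oxy-Hb. C3a replicate 2 lay above all 3 oxy-Hb libraries, and the other C3a libraries lay below them. The log2 fold change was 0.05 ± 0.14 (SE; edgeR adjusted p = 0.855) with all libraries and -0.17 ± 0.08 (SE; adjusted p = 0.186) without C3a replicate 2, so 1 library set its sign. The arginine carrier gene Slc7a1 (ENSMUSG00000041313, chromosome 5, 148327410 to 148399904, minus strand) went the other way in that library, with 91.2, 63.7 and 89.8 CPM with C3a, against 81.3, 87.8 and 93.9 CPM with oxy-Hb. Its log2 fold change was -0.10 ± 0.13 (SE; adjusted p = 0.660), and 0.04 without C3a replicate 2 (adjusted p = 0.836).

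**Figure D2:**
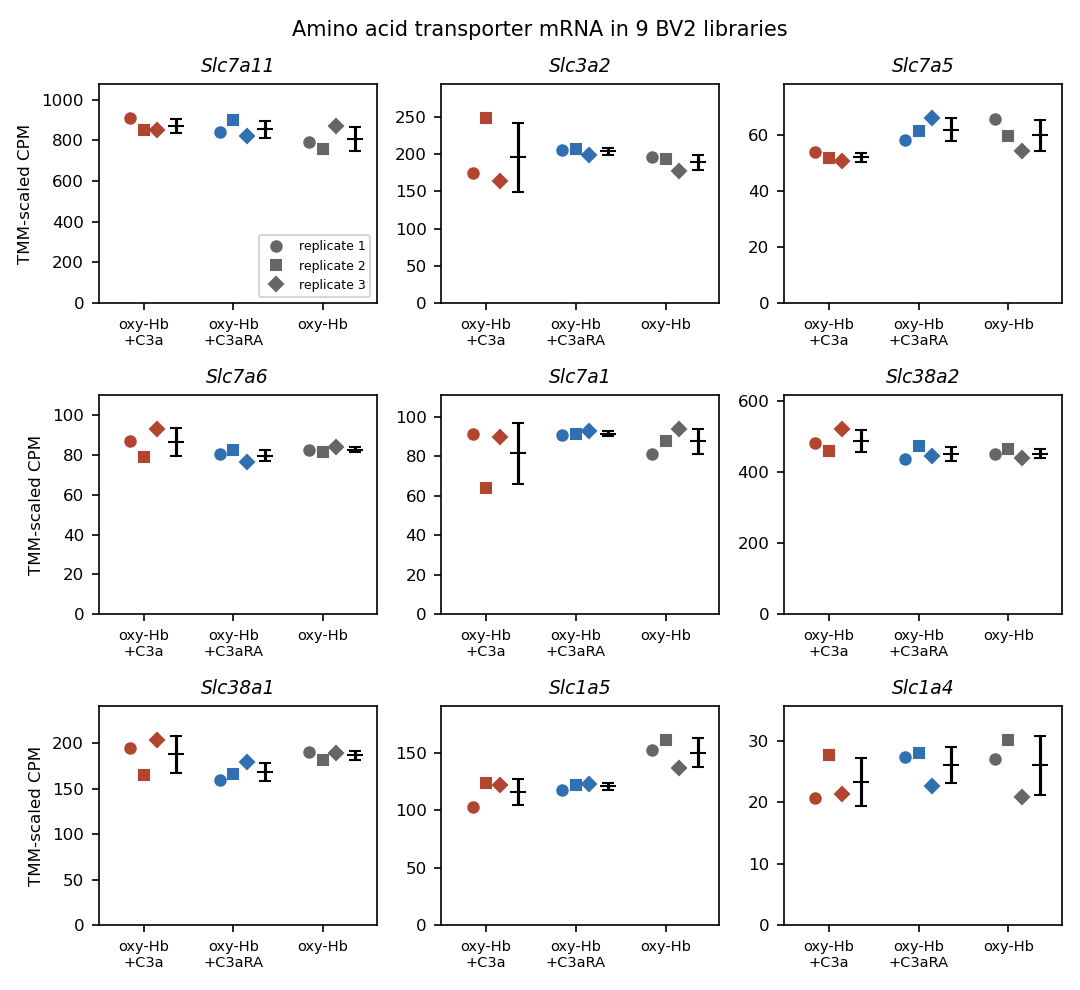
TMM-scaled CPM of the 9 transporters in every library, with oxy-Hb+C3a, oxy-Hb+C3aRA and oxy-Hb from left to right and a symbol for each replicate number; black marks are the mean and SD of 3 libraries. Slc1a5 is lower in the 6 libraries with an addition (103 to 124 CPM) than in the 3 of oxy-Hb (136 to 161 CPM), and C3a replicate 2 is high for Slc3a2 (249 CPM) and low for Slc7a1 (63.7 CPM).

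Slc38a2 (ENSMUSG00000022462, chromosome 15, 96687392 to 96699730, minus strand), which encodes SNAT2, had 482, 460 and 522 CPM with C3a, against 452, 465 and 439 CPM with oxy-Hb. Its groups overlapped, with a log2 fold change of 0.11 ± 0.09 (SE; edgeR adjusted p = 0.489). Its paralog Slc38a1 (ENSMUSG00000023169, chromosome 15, 96571418 to 96642913, minus strand) had 194, 165 and 204 CPM with C3a, against 191, 181 and 189 CPM with oxy-Hb, and differed by 0.0064 ± 0.10 (SE; adjusted p = 0.979), or by 0.09 without C3a replicate 2 (adjusted p = 0.552). Slc1a4 (ENSMUSG00000020142, chromosome 11, 20302180 to 20332713, minus strand), the serine and alanine exchanger gene, had 20.8, 27.8 and 21.3 CPM with C3a, against 27.1, 30.2 and 20.8 CPM with oxy-Hb. It had the widest interval of the 9 (log2 fold change -0.16, 95% interval -0.52 to 0.20, edgeR adjusted p = 0.582), and stood at -0.31 (adjusted p = 0.207) without C3a replicate 2. In that fit Slc7a11 (0.12), Slc38a2 (0.15) and Slc7a5 (-0.20) did not pass either.

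C3a replicate 2 differed from C3a replicates 1 and 3 in a way that went with transcript length. Over all tested genes, the median log2 difference of this library from the mean of the others was 0.29 for exon lengths up to 2 kb (3296 genes), 0.14 from 2 to 4 kb (4121), -0.11 from 4 to 8 kb (4673) and -0.41 above 8 kb (2047). Among the members, Slc3a2, with 3529 exon bases, was higher by 0.56 on the log2 scale in this library, and Slc1a4, with 3926 bases, by 0.40. Slc1a5 with 4173 bases stood at 0.15 and Slc7a5 with 3708 bases at -0.01. Slc7a6 with 4570 bases (-0.18), Slc38a2 with 8838 bases (-0.13), Slc7a11 with 13922 bases (-0.05), Slc38a1 with 17236 bases (-0.27) and Slc7a1 with 11530 bases (-0.51) were at or below the other C3a libraries. After a correction of each library for transcript length and GC content, none of the 9 passed with C3a against oxy-Hb. Slc1a5 then stood at -0.24 (edgeR adjusted p = 0.122), Slc7a11 at 0.38 (adjusted p = 0.0880) and Slc38a1 at 0.31 (adjusted p = 0.0749). The median log2 fold change over all genes was 0.0956 after this correction, beside 0.0016 before it.

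**Figure D3:**
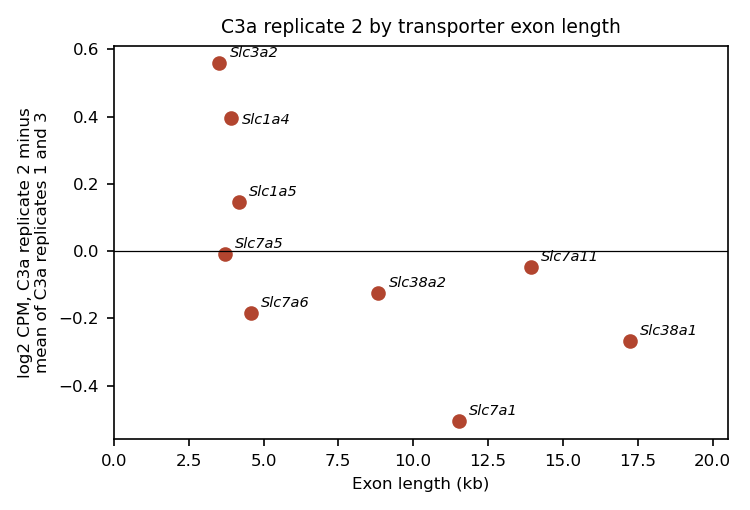
Log2 difference of C3a replicate 2 from the mean of C3a replicates 1 and 3 (vertical) against exon length in kilobases (horizontal), 1 point per transporter. Slc3a2 at 3529 bases is highest (0.56) and Slc7a1 at 11530 bases lowest (-0.51), while Slc7a11 at 13922 bases lies near 0 (-0.05).

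The next comparison asked what C3aRA added to oxy-Hb. Slc1a5 again stood lower, and the 95% intervals of the other 8 members included 0. None of the 9 passed the edgeR test over all genes, and neither did any other gene (0 of 14146, or 0%). An unadjusted p below 0.05 was reached by 1 member, Slc1a5, against 8.15% of all genes (1153). DESeq2 called 19 genes and limma-voom 0, with no member among them. The groups did not overlap for 3 of the 9 (22.9% of all genes), with Slc1a5 and Slc38a1 lower and Slc3a2 higher. The median log2 fold change was -0.001 for the members and -0.012 for all genes, and the median absolute log2 fold change was 0.06 for the members and 0.16 for all genes. Its 3 oxy-Hb libraries are those of the comparison with C3a, so the results are not independent.

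Slc1a5 had 118, 122 and 123 CPM with C3aRA, against 153, 161 and 136 CPM with oxy-Hb. The C3aRA libraries were close together and all below the oxy-Hb libraries, with means of 121 ± 2.84 CPM with C3aRA and 150 ± 12.6 CPM with oxy-Hb (SD, n = 3 each). The log2 fold change was -0.31 ± 0.11 (SE; 95% interval -0.54 to -0.09), with an edgeR adjusted p of 0.494 in the fit of 9 libraries. C3a replicate 2 is in neither of these groups but enters the shared estimate of the spread; in the fit without it the same log2 fold change had an SE of 0.08 and an adjusted p of 0.0265, and 3.25% of all genes were called (475). In an edgeR fit of the 2 groups alone the adjusted p was 0.0133, and the number of all genes called in that fit is given below with the processing. Over all 18 alternatives the direction did not turn, with log2 fold changes from -0.38 to -0.24 and adjusted p from 0.0133 to 0.990, and 2 of them called it. Slc1a5 had a log2 fold change of -0.31 and an adjusted p of 0.0050 in the authors' deposited table (by a test that no source used here names), and it was the 1 member with an adjusted p below 0.05, the other 8 having 0.209 to 0.996.

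Slc3a2 had 206, 207 and 199 CPM with C3aRA, against 196, 193 and 177 CPM with oxy-Hb. The heavy chain gene thus lay above oxy-Hb in every C3aRA library, by a log2 fold change of 0.11 ± 0.14 (SE; edgeR adjusted p = 0.878). Slc38a1 had 159, 166 and 179 CPM with C3aRA, against 191, 181 and 189 CPM with oxy-Hb. It lay below oxy-Hb in every C3aRA library, with a log2 fold change of -0.15 ± 0.10 (SE; edgeR adjusted p = 0.738).

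The other members overlapped between C3aRA and oxy-Hb. Slc7a11 had 840, 899 and 820 CPM with C3aRA, against 793, 756 and 870 CPM with oxy-Hb (log2 fold change 0.08, edgeR adjusted p = 0.867). Slc7a5 had 58.3, 61.7 and 66.3 CPM with C3aRA, against 65.8, 59.7 and 54.6 CPM with oxy-Hb (0.05, adjusted p = 0.938). For both light chain genes the libraries of the groups were interleaved. Slc38a2, which is known to be strongly induced when amino acids are short, had 437, 473 and 444 CPM with C3aRA, against 452, 465 and 439 CPM with oxy-Hb, a log2 fold change of -0.0019 (95% interval -0.20 to 0.20). Slc7a6, Slc7a1 and Slc1a4 stood at -0.05, 0.06 and -8.1e-04.

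**Figure D4:**
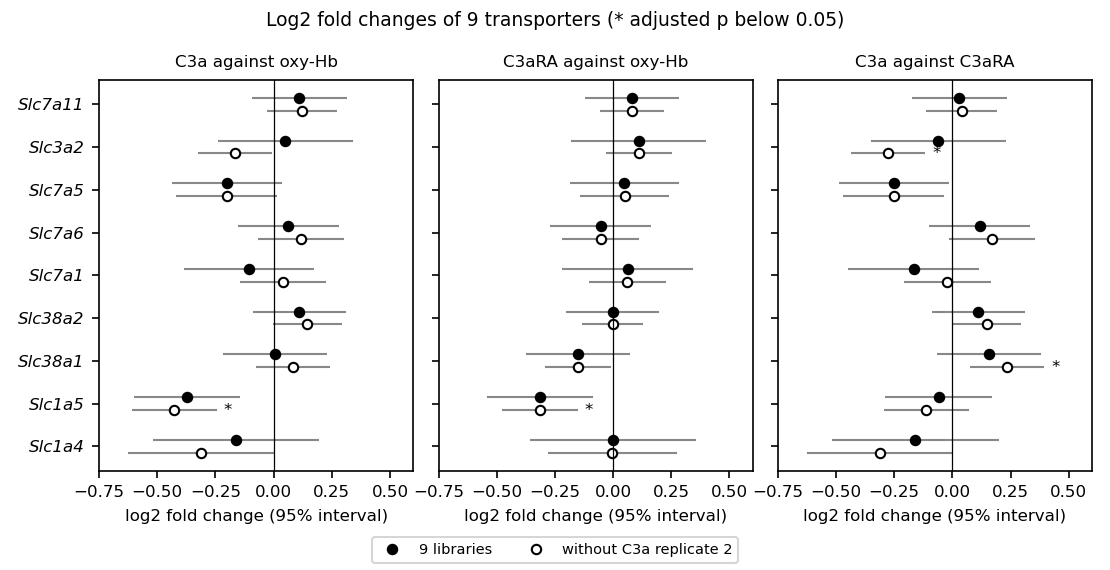
Log2 fold changes of the 9 transporters with 95% intervals from edgeR, for C3a against oxy-Hb, C3aRA against oxy-Hb and C3a against C3aRA; filled points are from 9 libraries, open points from 8 without C3a replicate 2, and a star marks an adjusted p below 0.05. No filled point has a star, Slc1a5 is lowest in the panels against oxy-Hb (-0.37 and -0.31), and Slc3a2 moves from -0.06 to -0.28 in the panel of C3a against C3aRA when that library is left out.

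The last comparison set both additions side by side. With C3a against C3aRA none of the 9 members passed in the fit of 9 libraries, where 6.19% of all genes did (876). Slc7a5 alone reached an unadjusted p below 0.05 (24.2% of all genes) and alone had groups that did not overlap (28.8% of all genes). It had 54.0, 52.0 and 50.8 CPM with C3a, against 58.3, 61.7 and 66.3 CPM with C3aRA. Its means were 52.2 ± 1.61 CPM with C3a and 62.1 ± 4.03 CPM with C3aRA (SD, n = 3 each), a log2 fold change of -0.25 ± 0.11 (SE; 95% interval -0.49 to -0.01; edgeR adjusted p = 0.182). Over 18 alternatives it ran from -0.29 to -0.19 with adjusted p from 0.123 to 0.436. Slc1a5, lower with either addition than with oxy-Hb, differed by -0.06 between C3a and C3aRA (95% interval -0.29 to 0.17). The members' median was -0.059, beside 0.008 for all genes.

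Without C3a replicate 2, a fit that called 12.5% of all genes (1827), 2 members passed between C3a and C3aRA. Slc3a2, with 174 and 163 CPM left with C3a, against 206, 207 and 199 CPM with C3aRA, was lower by 0.28 on the log2 scale (log2 fold change -0.28 ± 0.08, SE; edgeR adjusted p = 0.0170). Slc38a1, with 194 and 204 CPM left with C3a, against 159, 166 and 179 CPM with C3aRA, was higher (0.24 ± 0.08, SE; adjusted p = 0.0419). For both genes the remaining C3a libraries lay apart from the C3aRA libraries. The length and GC correction of all 9 libraries also called Slc38a1 (0.43, adjusted p = 0.0210) and gave Slc3a2 a log2 fold change of -0.04 (adjusted p = 0.872). With that correction the median over all genes was 0.0473. The share of all genes that the corrected fit called in this comparison is not given here, so the call stands without it.

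Some members varied little across the 9 libraries and others as much as most genes. As the root mean square of log2 CPM around a gene's own mean, Slc38a2 (0.0759), Slc7a6 (0.0775) and Slc7a11 (0.0798) lay at the 1.46, 1.63 and 1.96 percentiles of the 10109 genes that averaged 5 CPM or more, whose median was 0.200. Among genes within 2-fold of the same level, Slc38a2 lay at percentile 2.59 of 696, Slc7a6 at 2.91 of 3887 and Slc7a11 at 1.48 of 271. Slc1a4 (0.201), Slc1a5 (0.188), Slc3a2 (0.166) and Slc7a1 (0.165) varied most, at the 50.4, 44.6, 34.2 and 34.1 percentiles of all these genes and at 47.4, 61.0, 50.1 and 46.6 among genes of like level. Slc7a5 (0.133, percentile 18.8) and Slc38a1 (0.113, percentile 10.3) lay between. The genes whose centred log2 CPM lay closest to that of Slc7a11 over the 9 libraries were Yme1l1, Pdcl and Uso1 (root mean square differences 0.0431, 0.0434 and 0.0459). For Slc7a5 they were Snx33, Ranbp9 and Actn1 (0.0362, 0.0519 and 0.0570), and for Slc38a2 Nono, Wdfy1 and Ikbkg (0.0342, 0.0369 and 0.0383). Over all 10100 genes compared, the median difference was 0.215, 0.242 and 0.210 from these members. The genes closest to Slc7a11 and Slc38a2 themselves varied little (0.0717 to 0.0893), so their closeness does not show a shared profile.

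Other amino acid transporter genes of the cell surface and lysosome were also followed. Of 50 listed, 26 were in the tables and 21 were tested, with Slc6a6, the taurine transporter, highest per length (16.6 CPM per kilobase). With C3a against oxy-Hb, 3 of 21 fell and 0 rose (3.94% of all genes changed), and the list median was -0.193 beside 0.002 for all genes. Slc36a1, a proton-coupled transporter of small amino acids in lysosomes, had 16.2, 15.4 and 17.6 CPM with C3a, against 34.1, 38.2 and 28.4 CPM with oxy-Hb. The C3a libraries all lay below the oxy-Hb libraries, with a log2 fold change of -1.04 ± 0.14 (SE; edgeR adjusted p = 0.00256), and the call held in all 18 alternatives. Slc38a9, the lysosomal arginine sensor of mTORC1, had 25.2, 25.5 and 28.8 CPM with C3a, against 37.5, 35.0 and 35.8 CPM with oxy-Hb (log2 fold change -0.44, adjusted p = 0.0456). Slc6a17, a vesicular neutral amino acid transporter gene known from neurons, fell by 0.64 on the log2 scale (adjusted p = 0.0407). The calls of Slc38a9 and Slc6a17 held in 2 and 3 of the 9 fits that left out 1 library, and neither held after the length and GC correction (-0.16 and -0.34). In that corrected fit 1 of the 21 fell, Slc36a1, and 1 rose, Slc38a10, where 940 of 14132 genes were called. Slc7a15 had the fourth lowest p (-1.57, adjusted p = 0.0918). In the fit without C3a replicate 2, 5 of the 21 fell, Slc36a1, Slc38a9, Slc6a17, Slc38a6 and Slc7a15. That fit called 9.55% of all genes.

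With C3a against C3aRA, Slc36a1 (-0.58, edgeR adjusted p = 0.0311) and Slc38a9 (-0.49, adjusted p = 0.0278) were the 2 of 21 that fell, with 0 rising (6.19% of all genes changed). These calls held in 4 and 5 of the 9 fits that left out 1 library, and after the length and GC correction Slc36a1 passed at -0.46 (adjusted p = 0.0361) while Slc38a9, at -0.21, did not. The corrected fit also called Slc43a2, which was higher with C3a. Slc36a1 had 16.2, 15.4 and 17.6 CPM with C3a, against 23.7, 23.4 and 26.4 CPM with C3aRA. Its 3 groups thus formed steps with no overlap, lowest with C3a and highest with oxy-Hb. Between C3aRA and oxy-Hb no gene of this list passed, with Slc36a1 at -0.46 (adjusted p = 0.479) and Slc43a2 at -0.42 (adjusted p = 0.479). It passed there without C3a replicate 2 (-0.46, adjusted p = 0.0411). Of 13 tested mitochondrial amino acid carriers, 0 passed in any of the 3 comparisons in 9 libraries. Without C3a replicate 2, Slc25a12 and Slc25a13 rose and Slc25a22 fell with C3a against oxy-Hb (9.55% of all genes called). Slc25a13, Sfxn1 and Sfxn2 rose with C3a against C3aRA in that fit (12.5% called). In 9 libraries the lowest p with C3a against oxy-Hb was that of Slc25a22, a glutamate carrier (-0.61, edgeR adjusted p = 0.0691).

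Some genes of the ATF4 amino acid response, to which several members are known to belong, differed between the additions in 9 libraries, where no member passed. With C3a against C3aRA, 6 of 25 tested ATF4 response genes fell and 0 rose, with a list median of -0.129 beside 0.008 for all genes (6.19% of all genes changed). Gdf15, a stress cytokine, had 15.2, 23.5 and 12.1 CPM with C3a, against 34.1, 31.7 and 32.9 CPM with C3aRA (log2 fold change -0.96, edgeR adjusted p = 0.0169). Ddit3, the transcription factor CHOP, had 13.6, 23.3 and 13.5 CPM with C3a, against 53.4, 42.4 and 33.9 CPM with C3aRA (-1.36, adjusted p = 0.0214). For both genes C3a replicate 2 was the highest C3a library and still lay below every C3aRA library. Nupr1, a stress-induced chromatin factor (-0.59, adjusted p = 0.0197), and Gpt2, a mitochondrial alanine aminotransferase (-0.46, adjusted p = 0.0213), fell as well. These 4 calls held in 5 to 6 of the 9 fits that left out 1 library, those of Gdf15 and Ddit3 in 6 each. The other 2 that fell, Ppp1r15a (-0.85, adjusted p = 0.0355) and Aldh18a1 (-0.33, adjusted p = 0.0481), held in 2 of the 9 each. With C3a replicate 2 left out, 11 of the 25 fell, in a fit that called 12.5% of all genes. Of the members, Slc3a2 was then called lower (-0.28, edgeR adjusted p = 0.0170) and Slc38a1 higher (0.24, adjusted p = 0.0419). Atf4 itself had 511, 742 and 491 CPM with C3a, against 540, 570 and 584 CPM with C3aRA (0.04, adjusted p = 0.878), and -0.18 (adjusted p = 0.111) without C3a replicate 2. The difference between this list and the transporters was not tested.

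With C3a against oxy-Hb, 0 of 25 ATF4 response genes passed in 9 libraries. Without C3a replicate 2, 5 fell, in a fit that called 9.55% of all genes. Atf4 stood at 0.26 (edgeR adjusted p = 0.259) in 9 libraries and 0.04 (adjusted p = 0.794) without that library. The 4 with the lowest p were Phgdh (0.33), Asns (0.29), Gdf15 (-0.46) and Ddit4 (-0.40), with adjusted p from 0.0966 to 0.186; without C3a replicate 2 Phgdh stood at 0.21, Asns at 0.13, Gdf15 at -0.78 and Ddit4 at -0.56. With C3aRA against oxy-Hb, 0 of 25 passed in 9 libraries with a list median of 0.217 beside -0.012 for all genes. Ddit4 (-0.62), Gpt2 (0.35), Asns (0.34) and Ddit3 (0.83) had the lowest p there, with adjusted p from 0.479 to 0.494. When C3a replicate 2 was left out, Asns, Gdf15, Gpt2, Nupr1, Phgdh and Trib3 rose and Ddit4 fell, where 3.25% of all genes were called. Asns, asparagine synthetase, then stood at 0.34 (adjusted p = 0.00400) and Atf4 at 0.22 (adjusted p = 0.0567).

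Cystine carried by xCT feeds glutathione, and genes of this defence were followed as a list. Of 18 tested genes of cystine use and glutathione, 2 rose and 0 fell with C3a against oxy-Hb (3.94% of all genes changed), with a list median of 0.278 beside 0.002 for all genes. Srxn1, which repairs peroxiredoxins, had 116, 167 and 128 CPM with C3a, against 80.8, 98.3 and 97.7 CPM with oxy-Hb (log2 fold change 0.57, edgeR adjusted p = 0.0425). Chac2, a glutathione-degrading enzyme, had 21.3, 23.4 and 18.3 CPM with C3a, against 14.4, 12.3 and 14.7 CPM with oxy-Hb (0.61, adjusted p = 0.0453). C3a replicate 2 was the highest library for both, and the calls held in 2 and 3 of the 9 fits that left out 1 library. Gpx1 (0.58, adjusted p = 0.0597) and Nfe2l2 (0.36, adjusted p = 0.0602) did not pass. Without C3a replicate 2, Srxn1, Chac2, Gpx1, Nfe2l2 and G6pdx passed, all higher, where 9.55% of all genes were called, and the list median was 0.164. With C3a against C3aRA, Srxn1 (0.66), G6pdx (0.49), which makes NADPH, and Gpx1 (0.64), a glutathione peroxidase, rose, 3 of 18 (6.19% of all genes changed), and Gclm, the modifier subunit of the first enzyme of glutathione synthesis, stood at 0.47 (adjusted p = 0.0553). The calls of Srxn1, G6pdx and Gpx1 held in 7, 6 and 3 of the 9 fits that left out 1 library. In the one without C3a replicate 2, Srxn1 (0.48), G6pdx (0.39), Gpx1 (0.38), Gclm (0.27) and Gclc (0.36) passed, where 12.5% of all genes were called. With C3aRA against oxy-Hb 0 of 18 passed, and Nfe2l2 stood at 0.15 (adjusted p = 0.736). Slc7a11 itself did not pass in any of these comparisons.

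Enzymes of glutamine, glutamate and linked amino acids did not pass in 9 libraries, 0 of 17 in each of the 3 comparisons. Glul, glutamine synthetase, was nearest to it with C3a, at 102, 99.9 and 112 CPM, against 81.0, 82.3 and 89.6 CPM with oxy-Hb (log2 fold change 0.31, edgeR adjusted p = 0.103). Its C3a libraries all lay above the oxy-Hb libraries, and it passed without C3a replicate 2 (0.34, adjusted p = 0.0193). In that fit Glul also rose (0.34) and Odc1, ornithine decarboxylase, fell (-0.39) with C3a against C3aRA. Got1, an aspartate aminotransferase (0.27), and Odc1 (0.35) rose there with C3aRA against oxy-Hb. Of all genes it called 9.55% with C3a against oxy-Hb, 12.5% with C3a against C3aRA and 3.25% with C3aRA against oxy-Hb. Of 10 amino acid sensor genes, Slc38a9, named above, fell with C3a against both other groups and no other passed (3.94% of all genes changed against oxy-Hb and 6.19% against C3aRA). After the length and GC correction Slc38a9 passed against neither. Rraga, a Rag GTPase of the same pathway, was then the 1 of 10 called, higher with C3a than with oxy-Hb. In that comparison the corrected fit called 940 of 14132 genes, 611 of them higher. Of 11 transcription factors known to act on transporter genes, Mlxip, a glucose-responsive factor, had 32.3, 22.2 and 34.8 CPM with C3a, against 60.7, 49.0 and 51.6 CPM with oxy-Hb (-0.85, adjusted p = 0.00954). It was lower with C3a than with C3aRA too (-0.62, adjusted p = 0.0329), a call kept in 4 of the 9 fits with 1 library left out; its call against oxy-Hb was kept in 8 of the 9. No other factor passed in 9 libraries. Without C3a replicate 2, Cebpb (-0.94, adjusted p = 8.2e-04) and Tfe3 (-0.51, adjusted p = 0.0241) fell and Nfe2l2 (0.26, adjusted p = 0.0245) rose with C3a against oxy-Hb (9.55% of all genes called). Cebpb (-0.68, adjusted p = 0.0121) and Myc (-1.24, adjusted p = 0.0435) fell against C3aRA (12.5% called).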

How the data were processed

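Messenger RNA of BV2 cells was measured by RNA sequencing; 9 libraries in 3 groups were analysed. The authors deposited raw counts per Ensembl gene in 2 tables with identical oxy-Hb columns (0 differed), with coordinates and their own log2 fold changes and p-values. Per the submitters' processing notes the builds are GRCm38 and mm10. The aligner, the counting tool and its strand setting, and how the authors tested, go unnamed (not given in the sources used here). No other gene's annotated exons overlapped those of a member. From the deposited counts, edgeR 4.0.16 (R 4.3.3) kept 14146 genes with filterByExpr (minimum count 10), scaled by TMM, and fitted 1 coefficient per group over 9 libraries (robust quasi-likelihood; biological coefficient of variation 15.8%). Benjamini-Hochberg adjustment ran over all tested genes; calls were below 0.05. In simulated counts the script called 30% to 32% of planted 1.5-fold changes and 54% to 64% of planted 2-fold changes. The planted genes were drawn at random from all tested genes, low counts included, so these rates are not those of the members. A member that did not pass may still have changed within its 95% interval. Over the 3 comparisons the members' intervals lay within -0.60 and 0.40 on the log2 scale. CPM are TMM-scaled, except marker sums (some markers are not reported here); lengths come from GENCODE for GRCm38. Errors are SDs of libraries or SEs of the fit.

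The members and lists were chosen with earlier results of these data known. All 9 members are named; from each list up to 4 genes with the lowest p, with Atf4, Nfe2l2 and called genes. Glul is named with its library values as the lowest p of its list with C3a against oxy-Hb. Genes most like a member had the smallest root mean square difference. Alternatives were DESeq2 1.42.0 size factors and Wald test, total count scaling, other filters, limma-voom (limma 3.58.1), 2 groups alone, a replicate block, leaving out each library, and a spline correction for transcript length and GC content.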

Additional observations from a re-analysis of the deposited data

How the results depend on the processing

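The number of genes called with C3a against oxy-Hb was 1033 with no count filter, 1346 with DESeq2, 99 with the 2 groups alone and 940 after the length and GC correction (611 higher and 329 lower, against 128 and 430 without it), and ran from 54 to 1638 when 1 library was left out. Of the members, 1 was called, Slc1a5 each time, with total count scaling, a mean of at least 5 CPM and DESeq2. Total count scaling called 698 of 14146 genes, and the filter at a mean of 5 CPM called 631 of 10107. Leaving out 1 library gave 0 to 1 members. With C3aRA against oxy-Hb 8 genes were called with no count filter, 19 with DESeq2 and 603 with the 2 groups alone, where 1 member, Slc1a5, passed; leaving out 1 library gave 0 to 475 genes and 0 to 1 members. With C3a against C3aRA 1559 genes were called with DESeq2 and 118 with the 2 groups alone. The length and GC correction called 1 member, Slc38a1, and the share of all genes it called there is not given here. Leaving out 1 library gave 53 to 1827 genes and 0 to 2 members. The cause was not tested.

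Sign changes concern comparisons in which the member did not pass with 9 libraries. With C3a against oxy-Hb, total count scaling gave -0.048 for Slc3a2, -0.026 for Slc7a6 and -0.082 for Slc38a1. The median over all genes moved as well, to -0.0895 with that scaling. Slc38a1 was -0.019 at a mean of at least 5 CPM and -0.0062 with the 2 groups alone. Slc7a1 was 0.14 after the length and GC correction, where the median over all genes was 0.0956. Leaving out 1 library gave -0.054 to 0.085 for Slc38a1, -0.17 to 0.17 for Slc3a2 and -0.18 to 0.041 for Slc7a1. With C3aRA against oxy-Hb, Slc38a2 was 0.0015 with DESeq2 and with its size factors in edgeR, and Slc1a4 was 0.0030 with these factors, 0.0033 with DESeq2, 4e-04 with limma-voom, 0.0099 with the replicate block and 0.060 after the length and GC correction. Total count scaling gave -0.013 for Slc7a5 and -3e-04 for Slc7a1. The median over all genes was -0.0744 with that scaling and 0.0367 after the length and GC correction. Leaving out 1 library gave -0.044 to 0.020 for Slc38a2, -0.13 to 0.12 for Slc1a4 and -0.0087 to 0.12 for Slc7a5. With C3a against C3aRA, Slc7a1 was 0.038 after the length and GC correction, where the median over all genes was 0.0473. Leaving out 1 library gave -0.28 to 0.068 for Slc3a2 and -0.11 to 0.028 for Slc1a5. Of all member values under alternatives, 442 kept direction and side of the threshold, 9 passed it newly and 35 changed sign.

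Over the 18 alternatives, 1 to 5 of the other transporters passed with C3a against oxy-Hb and 0 to 3 with C3a against C3aRA. Cystine and glutathione genes gave 0 to 7 and 0 to 6 in the same order, and the ATF4 response list gave 0 to 11 between the additions and 0 to 8 with C3aRA against oxy-Hb.

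Deviations of same-numbered libraries from their group means correlated from -0.041 to 0.17, and those of differently numbered libraries from -0.142 to 0.081. These values do not settle whether the numbers pair the samples. With the replicate number as a block, 835, 0 and 1210 genes and 0, 0 and 0 members were called in the order of the report.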

Other observations

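Ratios within a library do not depend on the scaling of that library, but their size depends on the gene lengths used. The ones here were chosen after the values had been seen and are given with no test. Slc1a5 over Slc38a2, both in CPM per kilobase of exon, was 0.451, 0.569 and 0.494 with C3a, 0.570, 0.544 and 0.587 with C3aRA, and 0.716, 0.735 and 0.658 with oxy-Hb. These 2 glutamine carrier genes thus stood in a lower ratio in all 6 libraries with an addition than in the 3 of oxy-Hb. Slc1a5 made up 9.76% to 11.4% of the summed level per length of the 9 transporters with C3a, 11.0% to 11.6% with C3aRA and 12.9% to 14.9% with oxy-Hb.

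Slc7a11 over its heavy chain gene Slc3a2 was 1.32, 0.868 and 1.32 with C3a, 1.03, 1.10 and 1.05 with C3aRA, and 1.03, 0.991 and 1.24 with oxy-Hb. C3a replicate 2 was the lowest of the 9 libraries and the other C3a libraries were the highest. The 3 light chain genes summed to 2.002, 1.31 and 2.06 times the level of Slc3a2 with C3a, 1.61, 1.69 and 1.66 times with C3aRA, and 1.67, 1.61 and 1.90 times with oxy-Hb. All these ratios are per kilobase of annotated exon. Per kilobase of the principal transcript, the mean of Slc7a11 (91.4) lay below that of Slc3a2 (108). Slc7a11 has 13922 exon bases and Slc3a2 3529, and C3a replicate 2 differed with length as given above. Whether length set its ratios was not tested.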
